A study of Mus musculus with 4 samples.

Results

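The response of cochlear non-hair cells to gentamicin was taken from the 6 libraries of GFP-negative sorted cells, 3 of untreated cultures and 3 of treated ones, out of 12 libraries in the study. The libraries were chosen by their sort and treatment labels alone and by no measured value. The study sorted cells from cochleae of Atoh1-GFP transgenic mice on a CD1 background, a line in which an Atoh1 enhancer drives green fluorescent protein in hair cells. Cochleae were taken at postnatal day 1 and kept overnight as explants in serum-free medium with N2 supplement and penicillin under low oxygen, and the treated cultures then received 0.5 mM gentamicin for 3 h. All 4 groups (hair cells and non-hair cells, control and gentamicin) shared the transgene, the culture and the enzymatic dissociation before sorting. The 6 libraries of GFP-positive hair cells are used here only where a value in non-hair cells is set beside them.

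The GFP-negative gate held a mixture. According to the methods it took Deiters', pillar and Hensen cells, the cells of the greater and lesser epithelial ridges and other tissue around the epithelium, and it left out cells with weak GFP. A change in such a mixture may be a change in the RNA of some cells or in the number of those cells, and fewer cells of a type and less RNA per cell cannot be told apart. The study calls the replicates biological. The labels give no animal or litter, so the p-values below measure a spread between libraries. The main model covers all groups, so its spread also draws on the hair cell libraries. Only fits of the non-hair cell groups alone take it from these 3 and 3 libraries.

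As background, supporting cells and the other cells of the cochlear duct hold the ionic and mechanical environment in which hair cells work, and gentamicin, an aminoglycoside that binds ribosomes, is toxic to hair cells before it harms their neighbours. Cells make cholesterol from acetyl-CoA along the mevalonate pathway, whose genes are switched on together by the transcription factor Srebf2 when sterols in the endoplasmic reticulum run low. Ribosomes are built in the nucleolus by RNA polymerase I and a large set of processing factors, and endothelial cells are kept in their identity by SoxF factors and signals from neighbouring tissue.

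The values are normalised read scores per gene, with 1 added to every score, so that a score of 1.00 stands for no reads. They carry no division by gene length and are compared only between libraries for the same gene. The non-hair cell libraries held 24685443 to 28151367 reads in genes, recovered from the step between low scores, against 22399803 to 28151367 over the whole study. The step gave whole numbers for 82.9% to 83.9% of the low values, so these depths are estimates. A total of 16077 of 23420 listed genes had at least 100 reads over the 12 libraries and were tested.

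Hair cell markers were low and markers of many other types were present. Atoh1, the hair cell transcription factor behind the reporter, averaged 1.38 ± 0.109 (mean ± SD of the 3 libraries) without treatment, against 209 in control hair cells, and Myo7a, the hair cell myosin, averaged 11.2 ± 2.97 against 1657. Scores in control non-hair cells were 172 ± 50.7 for Sox2 (supporting cells), 2101 ± 954 for Tecta (tectorial membrane), 335 ± 105 for Tbx18 (mesenchyme), 334 ± 66.2 for Sox10 (Schwann cells and intermediate cells of neural crest origin), 43.8 ± 12.1 for Pecam1 (endothelium) and 521 ± 247 for the neurofilament gene Nefm (neurons). Macrophage markers were low, with Csf1r at 8.33 ± 2.44. The population was thus epithelial, mesenchymal, glial, vascular and neuronal at once.

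Several libraries stood apart from the others of their group in ways the treatment does not label. Genes lying more than 2-fold from the mean of the other 2 libraries of the group numbered 663 in gentamicin replicate 2, 514 in gentamicin replicate 3 and 415 in control replicate 1, and 44 to 100 in the remaining libraries. In gentamicin replicate 2 the mean log2 score of 39 hypoxia and glycolysis genes was 5.89, below the 7.48 to 8.01 of the other 5 libraries, and the neuron list was also at its lowest there (4.67, against 5.31 to 6.23). Control replicate 1 had the highest interferon response mean (6.33, against 5.05 to 5.35) and the highest erythroid mean (2.90, against 0.99 to 1.32), with Hba-a1, an alpha globin, at 29.4 against 2.68 to 5.12. General epithelial markers ran from 5.62 in gentamicin replicate 2 to 6.94 in control replicate 3 and 6.82 in gentamicin replicate 3. The parts of these differences in the results below were not tested, and the counts without single libraries are given beside the lists described.

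**Figure D1:**
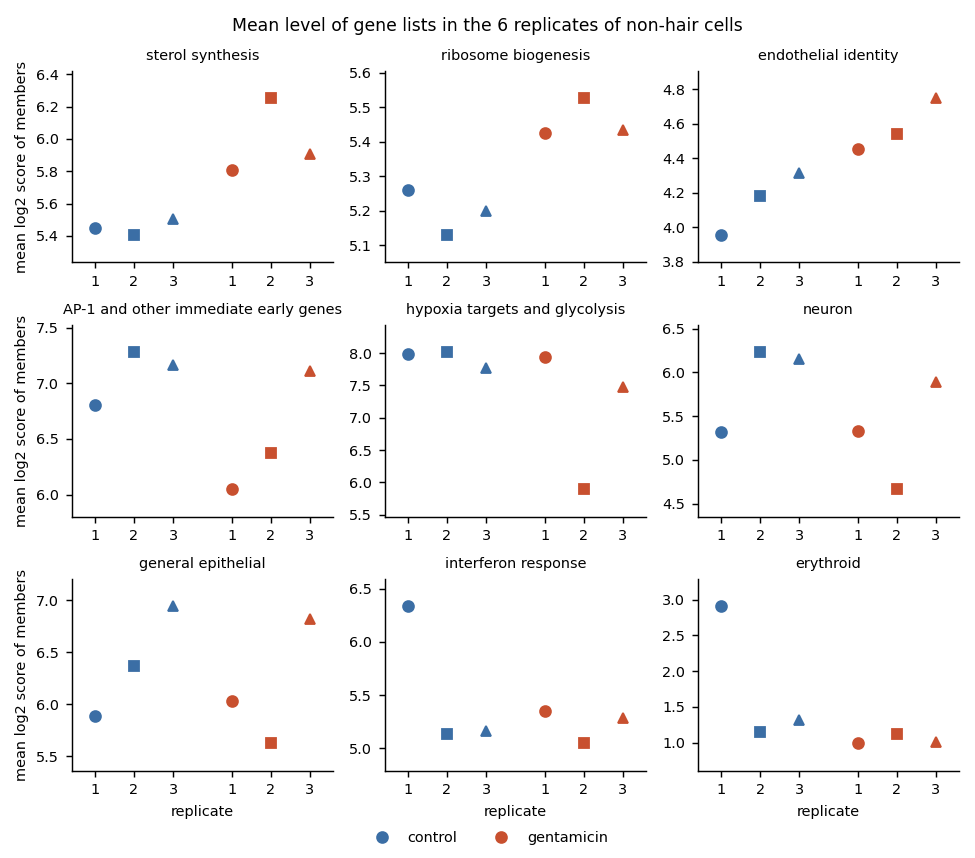
Mean log2 score of the tested members of 9 gene lists (vertical axes) in the 3 control and 3 gentamicin libraries of non-hair cells (horizontal axes). Sterol synthesis, ribosome biogenesis and endothelial identity separate the groups, on lists chosen with earlier results of these data known. The hypoxia, neuron and epithelial means overlap between the groups, with the hypoxia mean at 5.89 in gentamicin replicate 2.

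Across the mixture, gentamicin was followed by higher RNA of sterol synthesis, ribosome biogenesis and a set of endothelial genes, and by lower RNA of single genes such as Lif, Cebpb, Ier3 and Cysltr2. In the limma model over all 4 groups, 875 genes passed both thresholds, an unadjusted p below 0.01 and a change of over 1.2-fold, and are termed called, which is 5.44% of the genes tested. Of these, 512 were higher after gentamicin (3.18% of genes tested) and 363 lower (2.26%). Changes were small, with a median absolute log2 change of 0.43 over the called genes, and 38 genes (12 higher, 26 lower) changed more than 2-fold. A Benjamini-Hochberg adjusted p under 0.05 was reached by 55 genes, 38 higher and 17 lower.

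The model over 4 groups shares its spread with hair cells, whose libraries were closer to each other. The median SD of log2 scores was 0.145 in control and 0.157 in gentamicin non-hair cells, against 0.0945 and 0.127 in hair cells. With the 2 non-hair cell groups fitted alone, limma called 383 genes (2.38%), 230 higher and 153 lower, and none reached an adjusted p under 0.05, the lowest being 0.335, while 1787 genes had an unadjusted p under 0.05 there and 2753 in the model over 4 groups. A total of 239 genes (162 higher, 77 lower) were called in the main model, with the groups alone, with the replicate number as a term and without each of the 6 libraries in turn, which makes 9 fits, and are marked below as called in all 9 fits. Scaling the libraries by their total score in place of the deposited scaling gave 916 called genes, of which 634 (69.2%) were higher, where the deposited scaling gave 58.5%. Leaving out control replicate 1 gave 1366 called genes (606 higher) and leaving out gentamicin replicate 3 gave 1570 (731 higher), so that the direction of the larger share turned, as it did without both control replicate 1 and gentamicin replicate 2 (339 higher and 517 lower), whereas 411 were called without control replicate 2 and 458 without gentamicin replicate 2. Of the 875 called genes, 872 had the same sign in all 3 pairs of libraries with the same replicate number, as had 42.9% of all genes tested. The scores of all 3 treated libraries lay above all 3 controls in 491 of the 512 genes called higher and below them in 304 of the 363 called lower, beside 1620 and 1234 such genes among all tested. These counts of signs and overlaps use the scores that made the calls. For called genes they therefore follow largely from the selection and are no replication, and the replicate numbers were not taken to pair the samples.

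**Figure D2:**
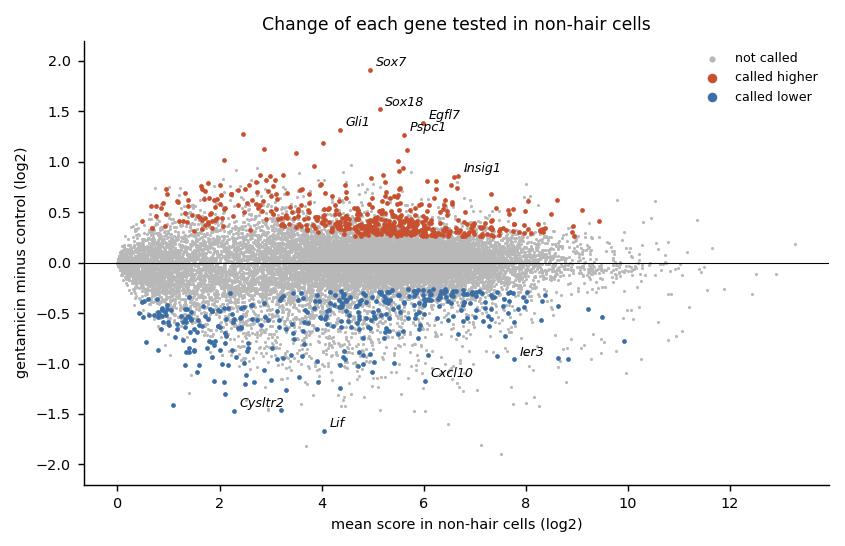
Difference of mean log2 scores, gentamicin minus control (vertical axis), against the mean score of each of the 16077 genes tested in non-hair cells on a log2 scale (horizontal axis). Coloured points are the 512 genes called higher and the 363 called lower, and the named genes are described in the text.

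Sterol synthesis was the list with the largest share of called members. Of its 26 tested genes 19 were higher after gentamicin and none lower (background 3.18% higher, 2.26% lower), with a median log2 change of 0.58 where the median of all genes was -0.01. In 23 of the 26 all 3 treated scores exceeded all 3 controls, as in 1620 of all 16077 genes, and 15 were called in all 9 fits, as were 239 of all. The count was 15 with the non-hair cell groups alone, 16 without gentamicin replicate 2, which held the highest sterol mean (6.25, against 5.81 and 5.91 in the other treated libraries and 5.41 to 5.502 in controls), and again 16 without both gentamicin replicate 2 and control replicate 1.

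The start of transcription of 17 of the 26 genes was matched by symbol to RefSeq promoter windows of the GRCm38.p6 assembly, each with 250 bases before the start and 50 after it. A CCAAT box, spelled CCAAT or ATTGG on the other strand, was in 16 of the 17 (94.1%) and in 42.3% of the 11652 tested genes with a window, the exception being Acat2. The letters TCACNCCAC of a sterol regulatory element, searched on both strands, were in 1 of the 17, Hmgcs1, and in 1.47% of all. The E-box letters CACGTG were in 4 of the 17 (23.5%), against 11.0% of all. These matches describe the letters near the start and no factor was measured there. The 150 bases before the start are shown for 2 genes, to place these letters. Both were called in all 9 fits, and their stretches overlapped no annotated exon. Capitals mark CCAAT or ATTGG and, in Hmgcs1, also the TCACNCCAC match that begins 137 bases before the start. The Mvk stretch is chr5:114444119-114444268 and the Hmgcs1 stretch is chr13:119690201-119690350, both on the plus strand and written 5′ to 3′.
Mvk: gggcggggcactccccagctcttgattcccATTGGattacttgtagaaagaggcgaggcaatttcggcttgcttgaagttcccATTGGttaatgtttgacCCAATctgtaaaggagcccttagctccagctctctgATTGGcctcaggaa
Hmgcs1: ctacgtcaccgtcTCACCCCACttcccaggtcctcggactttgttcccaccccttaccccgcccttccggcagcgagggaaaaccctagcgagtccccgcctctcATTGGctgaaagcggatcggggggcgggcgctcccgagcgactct

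The upper part of the pathway moved with the lower. Hmgcs1, which makes the HMG-CoA that feeds the mevalonate pathway, scored 161, 181 and 186 in controls and 230.0, 288 and 246 after gentamicin (log2 change 0.53 ± 0.11 SE, limma adjusted p = 0.0623). Mvk, mevalonate kinase, went from 30.0, 22.8 and 24.3 to 41.7, 61.4 and 39.6 (0.87 ± 0.15, adjusted p = 0.0455), and in both genes all treated scores lay above the controls.

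Idi1, the isopentenyl diphosphate isomerase, scored 56.3, 50.02 and 57.9 in controls and 83.4, 118 and 88.8 in treated cells, a log2 change of 0.81 ± 0.11 with an adjusted p of 0.0301. Sqle, the squalene epoxidase (chr15:59315077-59331192), scored 69.4, 71.7 and 85.1 against 112, 147 and 119 (0.74 ± 0.10, adjusted p = 0.0301). Both were called in all 9 fits, and in both gentamicin replicate 2 was the highest library. Cyp51, Lss and Fdft1, enzymes of the middle steps, were called in all 9 fits with log2 changes of 0.60, 0.60 and 0.51.

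Regulators of the pathway were higher as well. Insig1, which holds SREBP proteins in the endoplasmic reticulum (chr5:28071363-28078662, GRCm38, plus strand), scored 75.3, 69.0 and 71.9 in controls and 106, 159 and 133 after gentamicin, a log2 change of 0.86 ± 0.12 with an adjusted p of 0.0301. The groups did not overlap, and the gene was called in all 9 fits. Srebf2 itself had the smallest change of the 19 called genes, from 204, 217 and 206 to 234, 302 and 244 (0.31 ± 0.10, adjusted p = 0.163), and lost its call without gentamicin replicate 2 (0.19), without any one of the controls (0.29, 0.33 and 0.29) and with the groups alone. Ggps1, which branches off toward geranylgeranyl groups and not sterols, was the only tested member with a negative change, -0.13 ± 0.07, and was not called.

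The sterol response of non-hair cells differed from that of hair cells in these libraries. The median log2 change of the list was -0.21 in hair cells, and the interaction contrast had an adjusted p under 0.05 for 20 of the 26 genes, 19 of them more positive in non-hair cells, beside 13.4% of all genes tested. The largest of these differences was that of Insig1, whose change was 0.86 in non-hair cells and -0.78 in hair cells, a difference of 1.64 with an interaction adjusted p of 0.000816. For Fdps, the farnesyl diphosphate synthase, the difference was 1.01, and for Sqle it was 0.91.

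**Figure D3:**
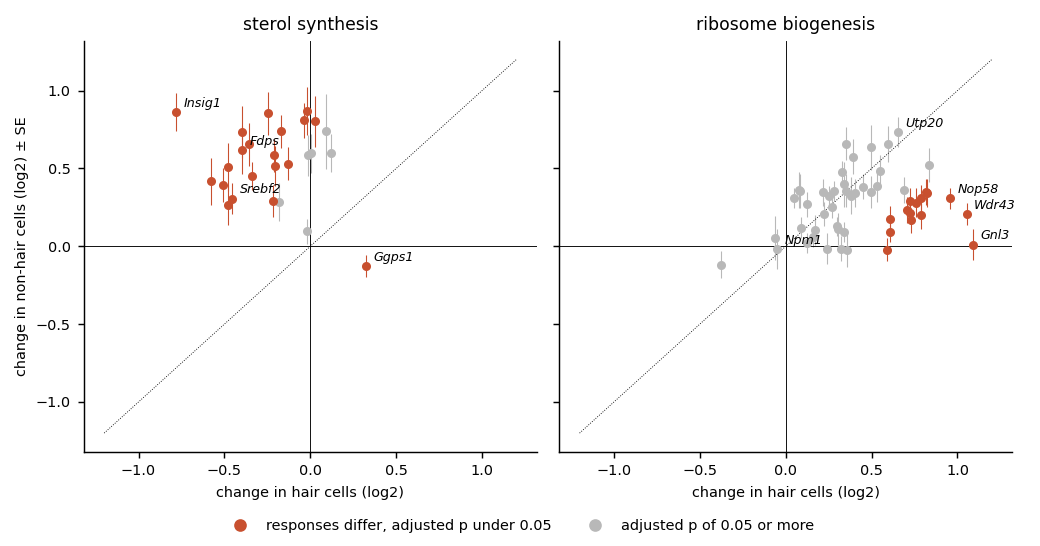
Log2 change after gentamicin in non-hair cells with its standard error (vertical axis) against that in hair cells (horizontal axis) for the tested members of 2 lists, with the dotted line marking equal changes. The 20 sterol genes and 15 ribosome biogenesis genes whose responses differed at an interaction adjusted p under 0.05 are coloured, 19 of the former more positive and all 15 of the latter less positive in non-hair cells.

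Fatty acid synthesis showed fewer calls. Of 27 tested genes 3 were higher and none lower, namely Acaca, Fasn and Acly, the successive enzymes from citrate to palmitate. Acaca, acetyl-CoA carboxylase, scored 93.8, 89.3 and 97.0 in controls and 129, 149 and 121 after gentamicin (0.50 ± 0.09, adjusted p = 0.0391). Fasn, fatty acid synthase, scored 439, 405 and 509 against 572, 716 and 660.1 (0.53 ± 0.11, adjusted p = 0.0676), and both were called in all 9 fits. Acly, at 0.31 ± 0.09, lost its call without control replicates 1 (0.27) and 2 (0.28) and without gentamicin replicate 2 (0.25).

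Ribosome biogenesis genes rose in smaller steps but in large number. Of 53 tested members 26 were called higher and none lower, 15 of them in all 9 fits, and the median log2 change was 0.29. The count was 17 with the non-hair cell groups alone and ran from 17 without gentamicin replicate 2 to 28 without control replicate 1. Among all genes 230, 276 and 606 were called higher in these fits, against 512 in the main model. Utp20, a component of the small-subunit processome, scored 34.1, 30.5 and 39.0 in controls and 54.7, 59.9 and 57.0 after gentamicin (0.73 ± 0.09, adjusted p = 0.0301). Polr1a, the large subunit of RNA polymerase I, scored 47.3, 45.4 and 50.8 against 66.5, 67.5 and 65.6 (0.48 ± 0.07, adjusted p = 0.0316). In both genes the treated libraries lay within a few units of each other and clear of the controls. Bop1 and Heatr1, which act in large-subunit and small-subunit assembly, rose by log2 changes of 0.66 and 0.66, the RNA helicase Ddx21 by 0.58 and Rrp12 by 0.64.

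Not every nucleolar gene was called. Npm1, nucleophosmin, scored 451, 359 and 318 in controls and 402, 391 and 314 in treated libraries, which overlapped throughout (-0.02 ± 0.13). Ncl, nucleolin, had a log2 change of 0.25 ± 0.07 at an unadjusted limma p of 0.00381 and missed the fold threshold. Gnl3, a nucleolar GTPase, had a change of 0.01 ± 0.10 in non-hair cells and 1.09 in hair cells (interaction adjusted p = 0.00204). Wdr43 had changes of 0.21 and 1.054, and Nop58 of 0.31 and 0.96. The interaction was past its threshold for 15 of the 53 genes, in all 15 toward a smaller change in non-hair cells, although the list medians were 0.29 and 0.38.

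Genes of the mature ribosome were not called alongside. None of 83 tested cytosolic ribosomal protein genes was called in either direction, with a median of -0.06. Of 76 mitochondrial ribosomal protein genes 5 were called higher and none lower (median 0.13), and none of these was called with the non-hair cell groups alone, while 1 was called without control replicate 2 or gentamicin replicate 2 and 8 without control replicate 1 or gentamicin replicate 3. The numbers of all genes called higher in these fits were, in the same order, 230, 254, 276, 606 and 731, against 512 in the main model. Promoter windows of ribosome biogenesis genes held CACGTG in 12 of 47 (25.5%) and the Ets letters CCGGAAGT in 11 of 47 (23.4%), against 11.0% and 7.66% of all tested genes with a window.

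Nucleotide synthesis followed the same direction. Of 30 tested genes of purine, pyrimidine and one-carbon synthesis 7 were called higher and 1 lower. Cad, the enzyme that begins pyrimidine synthesis, scored 72.7, 63.9 and 69.2 in controls and 115, 137 and 101 after gentamicin (0.77 ± 0.11, adjusted p = 0.0301). Mthfd1, the cytosolic folate enzyme, scored 31.3, 27.3 and 29.2 against 47.9, 56.4 and 39.4 (0.70 ± 0.12, adjusted p = 0.0359). All treated scores exceeded the controls in these genes, and the purine enzymes Gart and Atic rose by log2 changes of 0.46 and 0.42, all 4 being called in all 9 fits. The member that fell was Mthfd2, the mitochondrial folate enzyme, at -0.66 ± 0.18. It was called in the main model and lost its call without control replicate 2 (-0.48), gentamicin replicate 1 (-0.63) or gentamicin replicate 2 (-0.50).

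The proteasome list had 8 of 46 tested genes called higher and none lower, with a median of 0.20. The count was 5 with the groups alone, and it went from 3 without control replicate 2 to 15 without control replicate 1. Over all genes the number called higher moved with the same choices, being 512 in the main model, 230 with the groups alone, 254 without control replicate 2 and 606 without control replicate 1. Psmd1, a subunit of the regulatory particle, scored 114, 114 and 136 in controls and 151, 158 and 154 in treated libraries (0.35 ± 0.07, adjusted p = 0.065) and was called in all 9 fits. Among aminoacyl-tRNA synthetases 6 of 37 were called higher, among them Rars (0.29), Hars (0.29) and Wars (0.33), and 1 lower. The higher count was 3 with the groups alone and 2 without control replicate 2 or gentamicin replicate 2, and Rars was the member called in all 9 fits, whereas Hars lost its call without either of those libraries (0.26 and 0.24) and Wars without control replicates 1 (0.30) and 2 (0.28) and gentamicin replicates 2 (0.31) and 3 (0.31). The lower one was Lars2, the mitochondrial leucyl enzyme, at 555, 758 and 499.6 against 298, 335 and 287 (-0.96 ± 0.27, adjusted p = 0.122). Its call was lost without control replicate 2 (-0.78), gentamicin replicate 1 (-0.94) or gentamicin replicate 3 (-0.91).

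The largest rises were in endothelial genes. Sox7 and Sox18 encode SoxF transcription factors of blood and lymphatic vessels. Sox7 (chr14:63943673-63950732, plus strand) scored 9.36, 14.7 and 14.7 in controls and 45.7, 36.7 and 64.6 after gentamicin, a log2 change of 1.91 ± 0.26 with an adjusted p of 0.0301. Sox18 (chr2:181669836-181671640, minus strand) scored 17.1, 17.9 and 19.0 against 38.4, 64.0 and 55.9 (1.52 ± 0.22, adjusted p = 0.0301). For both, the lowest treated library was above 2 times the highest control. Egfl7, a secreted factor of endothelial cells, scored 29.6, 35.2 and 41.1 in controls and 82.4, 92.4 and 99.97 in treated cells (1.38 ± 0.14, adjusted p = 0.00505).

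Cldn5, the claudin of endothelial tight junctions, scored 27.6, 29.6 and 37.7 against 59.9, 56.3 and 93.7 (1.12 ± 0.20, adjusted p = 0.0466). Bcl6b, a transcriptional repressor found in vessels, scored 24.97, 30.6 and 34.1 against 50.03, 56.2 and 75.8 (1.01 ± 0.20, adjusted p = 0.0623). Esm1, a marker of endothelial tip cells, scored 2.41, 3.34 and 4.05 against 7.03, 7.34 and 8.95 (1.28 ± 0.19, adjusted p = 0.0301). No control library of these genes reached a treated one, and all were called in all 9 fits. Exons of Egfl7 overlap those of Agpat2 and Cebpb those of Tmem189 in the GENCODE annotation of GRCm38, as do those of Bop1 and Mroh1 and of Cxcl10 and Art3, and the strand of the counting is not given in the sources used here, so their reads cannot be fully told apart.

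Over the endothelial identity list 11 of 38 tested genes were called higher and none lower, 7 in all 9 fits, with a median of 0.29. Like the other lists, it was chosen with earlier results of these data known. Sox7, Sox18, Bcl6b, Myct1, Gimap6 and Sema3g are among its called members. Its counts, median and means thus describe these genes and are no independent support for an endothelial programme. The count was 8 with the groups alone and 8 to 11 with a library left out. Of all genes 230 were called higher with the groups alone and 254 to 731 with a library left out. On the list of tip and arterial genes 4 of 16 were higher and none lower, including Dll4, the Notch ligand of tip cells, at 0.94 ± 0.22. That list shares Sema3g with the identity list, and its count was 2 with the groups alone and 2 without control replicate 1 or gentamicin replicate 3, with 1 lower in the latter. Esm1 was its member called in all 9 fits. Changes were positive in 32 of the 38 identity genes, as in 7850 of all 16077 genes tested. Pecam1, Cdh5, Kdr and Flt1 of the identity list were not called, with Cdh5 and Kdr near the list median. Pecam1 scored 30.2, 47.9 and 53.4 in controls and 34.8, 27.3 and 46.7 in treated libraries (-0.27 ± 0.27), Cdh5 had a change of 0.22 ± 0.24, Kdr of 0.27 ± 0.33 and Flt1 of -0.19 ± 0.44, and the groups overlapped for all 4. The mean log2 score of the whole list was 3.96, 4.18 and 4.31 in controls and 4.46, 4.54 and 4.75 in treated libraries.

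In hair cell libraries most of these genes were near the floor, with control means of 2.40 for Sox7, 2.21 for Sox18, 2.77 for Cldn5, 3.48 for Bcl6b and 1.13 for Esm1, so that the added 1 makes their changes in hair cells smaller and the differences below contain that part. Egfl7 had a control mean of 25.9 there. On the log2(score) scale the changes of Sox7, Sox18, Egfl7, Cldn5, Bcl6b and Esm1 differed between the populations, with interaction adjusted p from 0.00145 to 0.0276, the lowest being that of Egfl7. Dll4, by contrast, had a control mean of 133 in hair cells and changed there by 0.90, and no difference was detected (interaction adjusted p = 0.953).

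**Figure D4:**
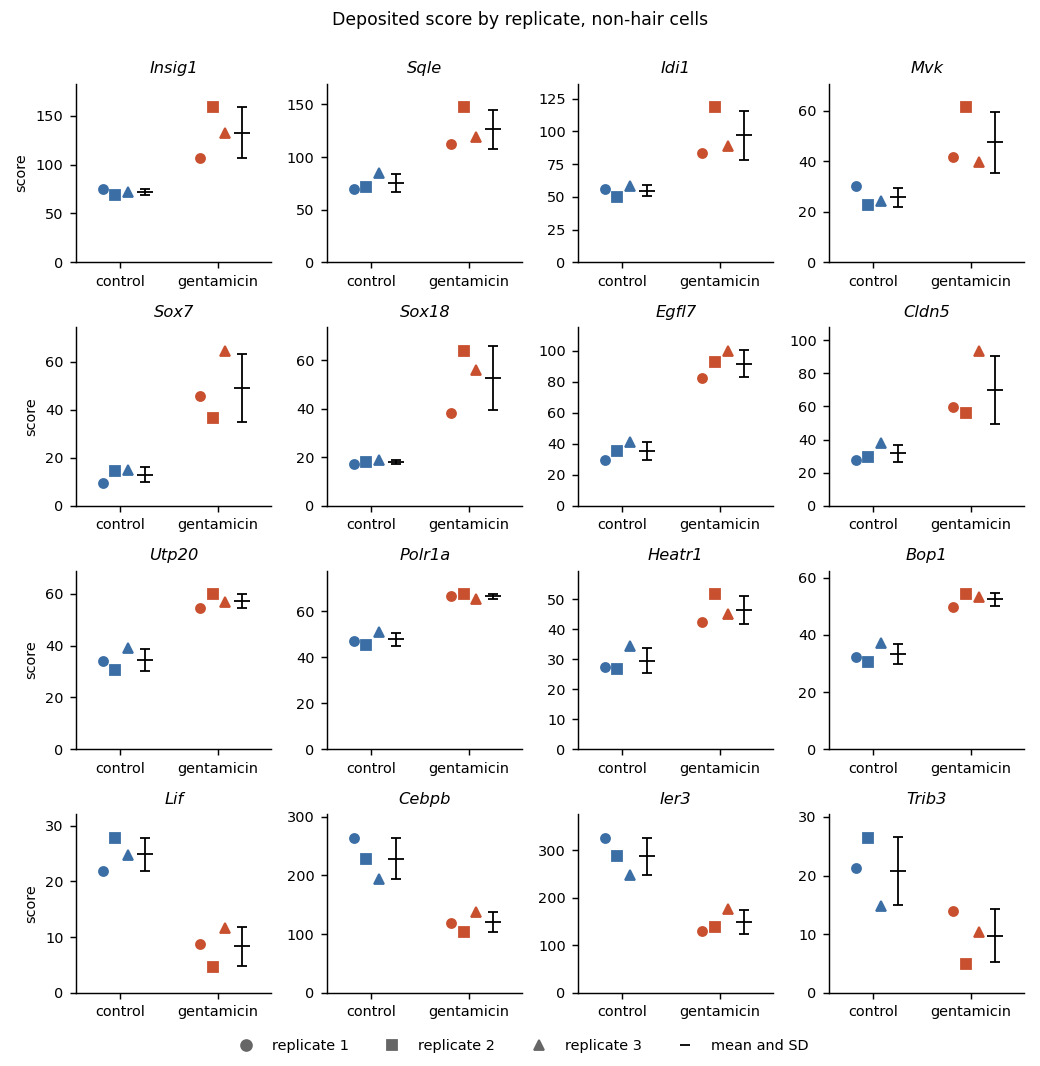
Deposited score in each of the 3 control and 3 gentamicin libraries of non-hair cells for 16 genes, with linear axes from 0 and the mean and SD beside the points. The 4 rows hold sterol genes, endothelial genes, ribosome biogenesis genes and genes that fell, and in each panel no treated point overlaps the controls.

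The gene with the smallest p in the whole comparison was Pspc1, a paraspeckle protein of the nucleus (chr14:56720710-56778316, minus strand). It scored 29.0, 24.4 and 32.9 in controls and 65.5, 75.8 and 65.8 after gentamicin, a log2 change of 1.27 ± 0.11 with an adjusted p of 0.00145. The rise was shared by hair cells, where it was 1.13 (interaction adjusted p = 0.557). Sec13, a coat protein of vesicles that leave the endoplasmic reticulum, scored 73.3, 61.3 and 69.5 against 102, 101 and 99.0 (0.57 ± 0.08, adjusted p = 0.0301) and had a change of -0.01 in hair cells (interaction adjusted p = 0.0092).

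Among lower genes, cytokines held the largest fall. Of 27 tested cytokine and chemokine genes 7 were called lower and 1 higher, with a median log2 change of -0.30. The lower count ran from 2 without control replicate 3 or either of gentamicin replicates 1 and 2 to 8 without gentamicin replicate 3. In these fits 325, 343, 182 and 839 of all genes were called lower, against 363 in the main model. Lif, a cytokine of the interleukin 6 family (chr11:4257557-4272514, plus strand), scored 21.9, 27.9 and 24.8 in controls and 8.80, 4.65 and 11.6 after gentamicin, a log2 change of -1.67 ± 0.28 with an adjusted p of 0.0379. It was the largest fall among the called genes and was called in all 9 fits. Cxcl10, an interferon-induced chemokine, scored 146, 50.1 and 81.3 against 40.9, 28.0 and 45.3 (-1.17 ± 0.35, adjusted p = 0.142), and Ccl2, which attracts monocytes, scored 35.3, 21.1 and 51.0 against 13.8, 14.5 and 22.8 (-1.02 ± 0.28, adjusted p = 0.119).

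The cytokine falls other than that of Lif depended on single libraries. Cxcl10 was highest in control replicate 1, the library with the high interferon mean, and its change was -0.77 and no longer called without it, and likewise not called without control replicate 3 (-1.198), gentamicin replicate 1 (-1.24) or gentamicin replicate 2 (-0.97). Ccl2 lost its call without the same 4 libraries (-0.98, -0.72, -0.89 and -0.92), and its groups overlapped. Cxcl1, Ccl3, Ccl4 and Tnf were also called lower, by log2 changes of -0.90, -0.62, -0.57 and -0.54, and none of these 4 was called with the groups alone, where the list had 1 gene lower. The member that rose was Cxcl14, a chemokine of epithelia, from 5.22, 3.85 and 4.94 to 6.76, 7.70 and 6.55 (0.59 ± 0.11, adjusted p = 0.0576), called in all 9 fits.

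Targets of inflammatory signalling moved with them in part. Bcl3, a nuclear partner of NF-kB, scored 47.7, 34.5 and 31.5 in controls and 21.6, 16.9 and 17.4 after gentamicin (-1.01 ± 0.21, adjusted p = 0.065) and was called in all 9 fits. Nfkbia, the inhibitor of NF-kB that NF-kB itself induces, had a change of -0.47 ± 0.12 and lost its call without control replicate 3 (-0.38). These 2 were the called members of 21 tested on the NF-kB list (median -0.11). Ptgs2, the inducible cyclooxygenase, had a change of -1.33 ± 0.45 that was not called. Cysltr2, a leukotriene receptor, scored 5.26, 6.86 and 9.42 against 3.20, 2.03 and 2.48 (-1.47 ± 0.23, adjusted p = 0.0327) and was called in all 9 fits.

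Genes of the integrated stress response were called lower more often than higher. Of 37 tested genes of this response and of amino acid supply 6 were called lower and 1, Wars, higher, with a median of -0.26. The lower count was 2 with the groups alone, 1 without control replicate 2, 2 without gentamicin replicate 2 and 9 without control replicate 3. All genes called lower numbered 153, 157, 182 and 325 in these fits, against 363 in the main model. Cebpb, a transcription factor of stress and inflammation, scored 264, 228 and 194 in controls and 119, 104 and 138 after gentamicin (-0.93 ± 0.14, adjusted p = 0.0301), and all treated scores were below the controls. Its change in hair cells was 0.14 (interaction adjusted p = 0.00735). The other 5 called lower, Trib3, Aldh1l2, Chac1, Mthfd2 and Ddit3, were each lost with some library left out, and of the 7 called genes Cebpb was the only one called in all 9 fits.

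Ddit3, the CHOP factor of the unfolded protein response, scored 28.6, 34.3 and 24.9 in controls and 19.2, 22.6 and 23.0 in treated non-hair cells (-0.43 ± 0.14, adjusted p = 0.155). It was called in the main model and lost without any library but control replicate 3 (-0.31 to -0.48). In hair cells its change was 1.46, and the interaction adjusted p was 0.000652. Atf4, the factor at the head of this response, scored 272, 292 and 242 against 257, 236 and 294 in non-hair cells (-0.04 ± 0.11) and rose by 1.80 in hair cells (interaction adjusted p = 0.000338). The list as a whole did not rise in hair cells, where its median change was -0.19, beside -0.26 in non-hair cells. The interaction was past its threshold for 5 of the 37 genes, near the 13.4% of all genes tested. On lists of other stress programmes, none of 25 cytosolic heat shock genes and none of 32 apoptosis regulators were called. Called were 1 of 26 endoplasmic reticulum chaperones (Dnajb11, higher), 1 of 25 p53 targets (Polk, lower) and 2 of 29 Nrf2 targets (Pgd higher, Mafg lower). The share over all genes tested was 5.44%, so in lists of this size these counts give no result about the programmes.

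Immediate early genes, which cells switch on within minutes of a stimulus, had mostly negative changes that were not called. On this list 2 of 36 tested genes were called lower and none higher, while the median log2 change was -0.57 and 35 of the 36 changes were negative. Over all 16077 genes tested 7850 changes were positive. The lower count was 20 without gentamicin replicate 3, where 839 of all genes were called lower, 4 without control replicate 1, and 1 to 3 without any of the others. Ier3, an early response gene linked to cell survival, scored 327, 288 and 249 in controls and 129.9, 139 and 177 after gentamicin (-0.96 ± 0.19, adjusted p = 0.0623) and was called in all 9 fits. Junb scored 1201, 1418 and 1052 against 516, 735 and 943 (-0.78 ± 0.21, adjusted p = 0.113), and lost its call without control replicate 2 (-0.66) or gentamicin replicate 1 (-0.55). Fos scored 1906, 2559 and 2105 in controls and 787, 1374 and 1935 in treated libraries, so that gentamicin replicate 3 lay within the controls and the change of -0.77 ± 0.28 was not called.

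The list mean of gentamicin replicate 3 was likewise near the controls, with log2 means of 6.81, 7.28 and 7.16 in controls and 6.05, 6.37 and 7.11 in treated libraries. In hair cells the median log2 change of the list was -0.72, beside -0.57 in non-hair cells. The interaction adjusted p was under 0.05 for 4 of the 36 genes, beside 13.4% of all genes tested. Jun, the partner of Fos, was 1 of these, with a change of -0.53 ± 0.31 in non-hair cells and 1.45 in hair cells (interaction adjusted p = 0.0166). Dusp2, a MAP kinase phosphatase, was the member with a positive change (0.53 ± 0.20, not called).

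**Figure D5:**
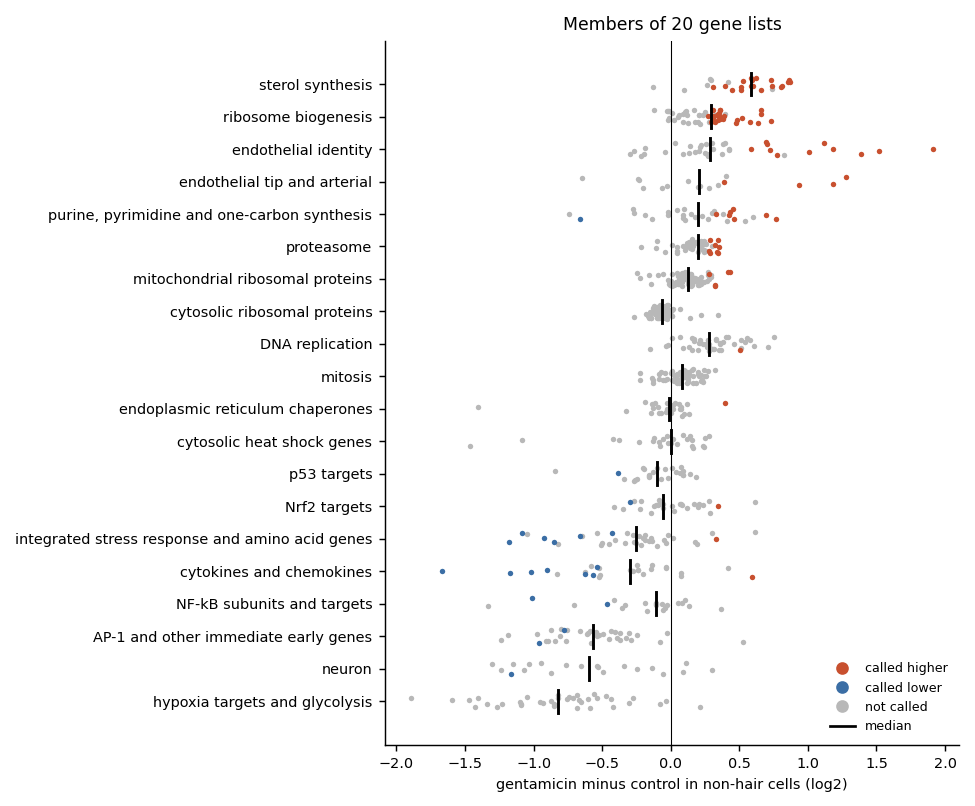
Log2 change after gentamicin in non-hair cells (horizontal axis) of every tested member of 20 gene lists, with called members coloured and a black bar at the median. The sterol list sits to the right with a median of 0.58 and 19 members called, and the hypoxia list to the left with a median of -0.82 and no member called.

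Some of the genes named for large falls had low scores. Trpm2, a calcium-permeable channel opened by oxidative stress, scored 5.62, 8.15 and 4.38 in controls and 3.14, 1.30 and 3.26 after gentamicin (-1.31 ± 0.32, adjusted p = 0.0956), a change of -1.07 and no call without control replicate 2. The potassium channel genes Kcnj12 (3.57, 4.90 and 6.97 against 2.42, 1.58 and 2.79) and Kcnh3 (2.86, 3.73 and 3.39 against 1.97, 1.44 and 1.56) had changes of -1.17 ± 0.25 and -1.01 ± 0.15 and were called in all 9 fits. Of the 14 tested genes on the list of drug entry routes and Trp channels, Trpm2 was the 1 called, and none was with the groups alone. At these levels, near the score of 1.00 that stands for no reads, the added 1 makes log2 changes smaller. Angptl6, a secreted angiopoietin-like protein, fell by 1.19 ± 0.21 on the log2 scale.

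Falls with small p at higher levels were found in genes of varied roles. Akap8l, a nuclear anchoring protein, scored 131, 148 and 132 in controls and 95.5, 97.5 and 87.7 after gentamicin (-0.55 ± 0.08, adjusted p = 0.0301). Dtx3, a ubiquitin ligase, scored 255, 290.4 and 255 against 192, 183 and 205 (-0.46 ± 0.07, adjusted p = 0.0327), Cyb5r1, a reductase, fell by 0.75 ± 0.12 and Zfr2, a zinc finger protein, by 0.68 ± 0.11. All 4 were called in all 9 fits, with treated scores below every control.

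Hypoxia and neuron lists had low medians and yet no more than 1 call. None of 39 hypoxia and glycolysis genes was called, although the median change was -0.82, and 5 were called lower without gentamicin replicate 1 and 1 without gentamicin replicate 3. In those fits 343 and 839 of all genes were called lower. The hypoxia list also had a negative median in hair cells, -1.09, and none of its genes had an interaction adjusted p under 0.05. Gapdh scored 2858, 2426 and 2230.4 in controls and 2538, 751 and 1963 in treated libraries, and Slc16a3, a lactate exporter, scored 249.97, 241 and 188 against 261, 5.46 and 155. Gentamicin replicate 2 was the low library in both. Hif1a RNA scored 247 there, against 192 to 236 in controls, and the level and activity of its protein were not measured. On the neuron list, 1 of 20 genes (Rbfox3) was called lower with a median of -0.60, and Nefm scored 244, 718 and 601 in controls and 236, 110.2 and 471 in treated libraries, so that control replicate 1 and gentamicin replicate 1 were alike. Without control replicate 1 the neuron list had 8 genes lower, without gentamicin replicate 3 it had 8 lower and 1 higher, and without both control replicate 1 and gentamicin replicate 2 it had 7 lower. Over all genes 760, 839 and 517 were called lower in these fits, against 363 in the main model. None was called without any one of the other 4 libraries, and Rbfox3 lost its call there (-0.77 to -1.15).

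Markers of the other cell types were mostly not called. No gene was called on the lists of hair cells (14 tested), supporting and prosensory cells (18), the greater epithelial ridge and tectorial membrane (11), lateral wall and Reissner membrane (13), general epithelium (13), mesenchyme and fibrocytes (19), macrophages (19) or erythroid cells (7), with medians from -0.82 in the erythroid list to 0.22 in mesenchyme. With 5.44% of all genes called, lists of this size without a call do not show unchanged markers. In the order of these lists, 9, 5, 4, 0, 1, 14, 10 and 1 of the changes were positive, beside 7850 of all 16077. Medians were -0.28 for supporting cells, -0.20 for the lateral wall and -0.23 for general epithelium. Without gentamicin replicate 3, 3 supporting cell and 2 hair cell markers were called lower, and without control replicate 1, 1 and 2. The numbers of all genes called lower in these fits were 839 and 760, against 363 in the main model. The Schwann cell list had 1 higher of 21 (Cnp), cartilage and bone 1 higher of 13 (Acan), pericytes 1 higher of 13 (Acta2) and melanocytes 1 lower of 11 (Dct), of which Cnp, Acta2 and Dct each lost the call without 3 or 4 of the libraries in turn. Acan, the aggrecan of cartilage matrix, scored 7.53, 6.31 and 7.06 in controls and 12.7, 23.4 and 10.8 after gentamicin (1.09 ± 0.24, adjusted p = 0.0738) and was called in all 9 fits.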

How the data were processed

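Sorted cells of cultured mouse cochleae were profiled by single-end sequencing of libraries made with the TruSeq mRNA kit. The authors aligned reads to mm10 with TopHat2 (versions are not given in the sources used here) and deposited normalised scores per gene with 1 added, 3 columns for each group. The score is described as corrected for gene length, but the low values step by the same amount in genes of every length, and no division by length is visible. Strand use in the counting is not given in the sources used here.

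The limma package (3.58.1, R 4.3.3) was run on log2 scores in 1 model of 4 groups with a mean-dependent prior spread, and p-values were adjusted by Benjamini and Hochberg over the 16077 genes tested. A gene was called at an unadjusted p under 0.01 and a fold above 1.2. Fold changes are on the log2(score) scale, where the added 1 makes those of low genes too small. Tables were handled with Python 3.11.15 and pandas 2.3.3, and the fit was tested on simulated data. The 2 cell types were compared by the interaction contrast.

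Genes were named as the 12 largest changes per direction (no overlap between groups, and a mean score of 5 or more where the gene was higher), the 10 smallest p per direction among genes called in all 9 fits, up to 3 called members per list and direction, the first 2 markers of each cell type list, and up to 3 uncalled members with the highest control level where a program list had none called. This gave 154 genes. A further 50 were described after their values were seen, among them Hmgcs1, Mvk, Srebf2, Pecam1, Kdr, Npm1, Atf4, Ddit3, Fos, Jun and Gapdh. The members and lists were chosen with earlier results of these data known. Some genes are not reported here by name and stay in the counts. Positions are those of GRCm38, and 72 of the genes share exon bases with another annotated gene. Alternatives were other scalings, an added offset of 0.1, other read minimums, other thresholds, the groups alone, the replicate number as a term and each library left out.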

Additional observations from a re-analysis of the deposited data

Results flagged for a closer look

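The results below were singled out because the response to gentamicin differed between non-hair cells and hair cells by the limma interaction test at an adjusted p under 0.05, among the genes described. Each value in parentheses is the log2 change in non-hair cells minus that in hair cells. Positive values thus mark a response that was higher, or less negative, in non-hair cells.

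Among sterol and lipid genes the differences were those of Insig1 (1.64), Fdps (1.01), Dhcr7 (0.99), Sqle (0.91), Mvk (0.89), Idi1 (0.85), Srebf2 (0.76), Fdft1 (0.72), Hmgcs1 (0.66), Acaca (0.58), Acly (0.57) and Ggps1 (-0.45). Ggps1 was the member of this group with a negative difference. Among endothelial genes they were Sox7 (1.67), Egfl7 (1.58), Sox18 (1.25), Bcl6b (1.21), Cldn5 (1.11), Esm1 (1.06), Gimap6 (0.80) and Myct1 (0.69), all positive. Apart from Egfl7, at a control mean of 25.9, these genes had control means of 1.13 to 3.48 in hair cells, where the added 1 makes a change smaller.

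Among nucleolar genes the differences were negative, with Gnl3 (-1.08), Wdr43 (-0.85) and Nop58 (-0.65). Among stress and immediate early genes they were Jun (-1.97), Ddit3 (-1.88), Atf4 (-1.83) and Cebpb (-1.06). Of these, Cebpb and Ddit3 were called lower in non-hair cells, and Atf4 and Jun were not called there. These genes do not stand for their lists. The integrated stress response list had medians of -0.26 in non-hair cells and -0.19 in hair cells, and the immediate early list -0.57 and -0.72.

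Other positive differences were those of Fndc9 (1.82), Acan (1.32), Sgsh (0.91), Foxl1 (0.90), Ptch1 (0.89), Flna (0.88), Ripply1 (0.69), Cad (0.67), Cxcl14 (0.64), Mafg (0.63), Cnp (0.63), Sec13 (0.57), Pgd (0.53), Dnajb11 (0.50), Tars2 (0.36) and Psme3 (0.30). The remaining negative ones were Ovgp1 (-1.17), Erdr1 (-1.05), Etv5 (-0.62) and Akap8l (-0.49).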

How the results depend on the processing

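Where the main model called 875 genes (512 higher, 363 lower), limma called 383 (230 and 153) with the non-hair cell groups alone, 299 (152 and 147) with the groups alone and the replicate block, 219 (93 and 126) at a fold of 1.5 and 55 (38 and 17) at an adjusted p under 0.05, the last pair by construction stricter and the cause of the others not tested. With 1 library left out the counts ran from 411 to 1570 in all, from 254 to 731 higher and from 157 to 839 lower. Without both control replicate 1 and gentamicin replicate 2, an alternative chosen after seeing the data, 339 were higher and 517 lower, where the main model had more higher than lower. The replicate block in the model of 4 groups gave 878 called genes (497 higher, 381 lower). Deviations of same-numbered libraries correlated at 0.208, -0.232 and 0.683, so the numbers were not taken to pair the samples. Other scalings, offsets and read minimums gave 739 to 916 calls. None of the called genes that were recomputed changed sign in any alternative, and 55 lost their call with the groups alone, 21 with the offset of 0.1 and 13 to 47 with a library left out. The alternatives reuse the scores that made the calls, so the kept signs follow largely from the selection and are no replication. Signs turned only in genes that were not called: the log2 fold change of Npm1 under total scaling (0.00404), and with a library left out Atf4 (-0.121 to 0.0380), Cdh5 (-1.64e-05 to 0.39), Flt1 (-0.56 to 0.28), Gnl3 (-0.0618 to 0.0690), Kdr (-0.0149 to 0.465), Npm1 (-0.13 to 0.12) and Top2a (-0.13 to 0.26). With both libraries out, the log2 fold change of Atf4 was 0.0486, that of Flt1 0.0583, Kdr -0.0789, Npm1 0.0726 and Top2a -0.13. Depth of 22399803 reads or more limits mainly genes with scores near 1.00.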

Other observations

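Among genes of signalling pathways, the Hedgehog list had 2 of 21 tested members called higher and 2 lower. Gli1, a transcription factor that Hedgehog signalling induces, scored 11.8, 10.5 and 8.76 in control non-hair cells and 18.3, 57.4 and 16.1 after gentamicin, a log2 change of 1.32 ± 0.38 (limma adjusted p = 0.124). Gentamicin replicate 2 was far above the other libraries, the change was 0.74 without it, and the call was lost without control replicate 2 (1.34) or 3 (1.203). Hhip, another target, scored 3.52, 2.90 and 3.16 against 4.05, 11.8 and 4.55 and was not called, and Ptch1 had a change of 0.09. Gas1, a Hedgehog co-receptor, scored 715, 683 and 663 against 457, 463 and 591 and was called lower (-0.46), a call lost without any one library but gentamicin replicate 3 (-0.39 to -0.48). With the groups alone no Hedgehog gene was called. None of 28 Wnt targets was called, and 1 gene was higher and 2 lower of 22 Notch genes, where 6 were lower without gentamicin replicate 3 and none with the groups alone. Called lower among all genes were 839 and 153 in those fits, beside 363 in the main model.

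Calls among cell cycle genes depended on single libraries. None of 63 mitosis genes was called (median log2 change 0.09) and 1 of 45 DNA replication genes was, Mcm6, a helicase subunit, at 0.50. Of the 45 changes 42 were positive, beside 7850 of all 16077. The replication count was 9 without gentamicin replicate 3, 4 without control replicate 1 and 0 with the groups alone (limma, unadjusted p under 0.01), where 731, 606 and 230 of all genes were called higher. Mcm6 lost its call without control replicates 2 (0.44) and 3 (0.42) and gentamicin replicates 1 (0.53) and 2 (0.32). The mean log2 score of the replication list was 4.55, 4.23 and 4.17 in controls and 4.53, 5.03 and 4.31 after gentamicin, so that control replicate 1 and gentamicin replicate 1 were alike and gentamicin replicate 2 was highest. Fndc9, a fibronectin domain protein, scored 3.11, 2.54 and 2.54 against 5.83, 7.45 and 3.88 (1.02) and was called in all 9 fits.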
